A study of Homo sapiens with 6 samples.

Results

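The genes described here are 50 genes of the integrated stress response and of protein synthesis, taken by symbol from a list of the 26485 symbols in the deposited whole-number count tables. They fall into 7 transcription factors, 9 effector and feedback genes, 8 enzymes of amino acid and one-carbon synthesis, 6 amino acid transporters and 20 cytosolic aminoacyl-tRNA synthetases. All 50 were found in the tables, and 49 passed the filter on low counts. VLDLR, a lipoprotein receptor, did not pass and was listed at 0.00 to 0.06 FPKM.

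The 6 libraries were RNA-seq libraries of K562, a long-established line of human chronic myeloid leukaemia cells with erythroid features. A control group of 2 libraries carried the guide sgNeg2 and was labelled wild type (WT). The ZNF410 knockout libraries carried either sgRNA1 or sgRNA2, with 2 libraries each, so 4 knockout libraries faced 2 wild-type ones. Each group held a library numbered replicate 1 and a library numbered replicate 2, which leaves 3 libraries to each number. All groups shared the same culture medium and serum, and none had a stress agent in its labels. The labels do not say whether a guide group is a pool or a clone, nor what a replicate number stands for. P-values here therefore measure the spread between these libraries, which may in part be technical. For replicate 2 against replicate 1 that spread is how far the 3 groups differ in their change. Such p-values do not measure how far other replicate numbers would differ from these.

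The integrated stress response is a pathway in which kinases phosphorylate the translation initiation factor eIF2 when amino acids run short, proteins misfold, viral RNA appears or haem is lacking. Phosphorylated eIF2 slows translation in general while ATF4, whose messenger RNA holds upstream reading frames, is translated more. ATF4 then binds DNA as a dimer with C/EBP proteins and raises genes for amino acid uptake, amino acid synthesis and tRNA charging, together with CHOP (DDIT3) and feedback genes. Erythroid cells are known for the haem-regulated kinase HRI, which ties globin synthesis to haem supply.

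The dimers of ATF4 with C/EBP proteins recognise the C/EBP-ATF response element, whose core was searched as TGATGNAA on both strands. TGATGCAA is called the exact form here and is one of the sequences that TGATGNAA covers, and no other motif was searched. The name is a label, since a match with another letter at N fits the searched core in full. RefSeq promoter windows (GRCh38.p14) reach from 250 bases before to 50 bases after a start, and some genes have several starts and windows. They were matched for 39 of the 50 members. A match lay in 14 of these 39 members (35.9%), against 1217 of 27305 genes with such a window (4.46%). The exact form lay in 9 of the 39 (23.08%) and in 295 of all genes (1.08%). The stretches below are shown because they belong to the gene with the largest difference between libraries (CHAC1), to further strongly varying members (ATF3, ASNS) and to synthetases, where the same letters recur. Capitals mark the match, and each sequence reads 5′ to 3′ on the strand of its gene.
ATF3, chr1:212565205-212565234, plus strand: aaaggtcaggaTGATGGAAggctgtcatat
CHAC1, chr15:40953251-40953280, plus strand: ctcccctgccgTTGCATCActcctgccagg
ASNS, chr7:97872458-97872487, minus strand: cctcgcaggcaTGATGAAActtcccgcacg
AARS, chr16:70289675-70289704, minus strand: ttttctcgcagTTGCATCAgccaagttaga
CARS, chr11:3057407-3057436, minus strand: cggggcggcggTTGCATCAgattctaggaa
IARS, chr9:92293692-92293721, minus strand: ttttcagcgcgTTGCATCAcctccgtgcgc
MARS, chr12:57488053-57488082, plus strand: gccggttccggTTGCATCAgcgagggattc
TARS, chr5:33440956-33440985, plus strand: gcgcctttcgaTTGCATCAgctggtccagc

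The matches began 191 bases before the start of ATF3, 209 before that of CHAC1 and 187 before that of AARS. In ASNS the match began 68 bases before 1 of its 2 starts. That start lies inside the gene, which begins at chr7:97928441. In IARS, MARS and CARS the match began 13, 4 and 2 bases before the start. In TARS it began 2 bases after 1 of its 2 starts, which lies inside the gene, as the gene begins at chr5:33440696. In GENCODE release 29 the ATF3 stretch overlapped no gene. The AARS stretch lay in an exon of its neighbour DDX19B, and the other 6 overlapped an annotated exon of their own gene. Among roles, 7 of 16 cytosolic synthetases with a window held a match and 6 held the exact form, against 1 of 14 and 0 of 14 mitochondrial synthetases. The other matches were in CEBPG, SLC3A2, SLC7A1, SLC1A5, GARS and NARS. A match is a run of letters and not a measured binding site.

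The stress response genes varied first of all with the replicate number. In replicate 2, 41 of the 49 tested members were lower than in replicate 1, 2 were higher and 6 did not pass the test (edgeR quasi-likelihood F-test, guide and replicate number in the fit, Benjamini-Hochberg adjusted p under 0.05 over 12282 genes). The number separated many other genes as well, since 45.0% of all genes passed the test, 23.5% lower and 21.6% higher in replicate 2. The members' median log2 fold change was -0.53, against -0.004 over all genes. A fall of at least 2-fold was called for 15 members, against 5.57% of all genes. The 15 include CARS by its whole-number counts, and in the estimated counts there were 14. In 40 of the 49 members (81.6%) all 3 replicate 1 libraries lay above all 3 replicate 2 libraries, against 26.5% of all genes, and in 2 members (4.08%) the order was the opposite, against 25.6%.

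**Figure D1:**
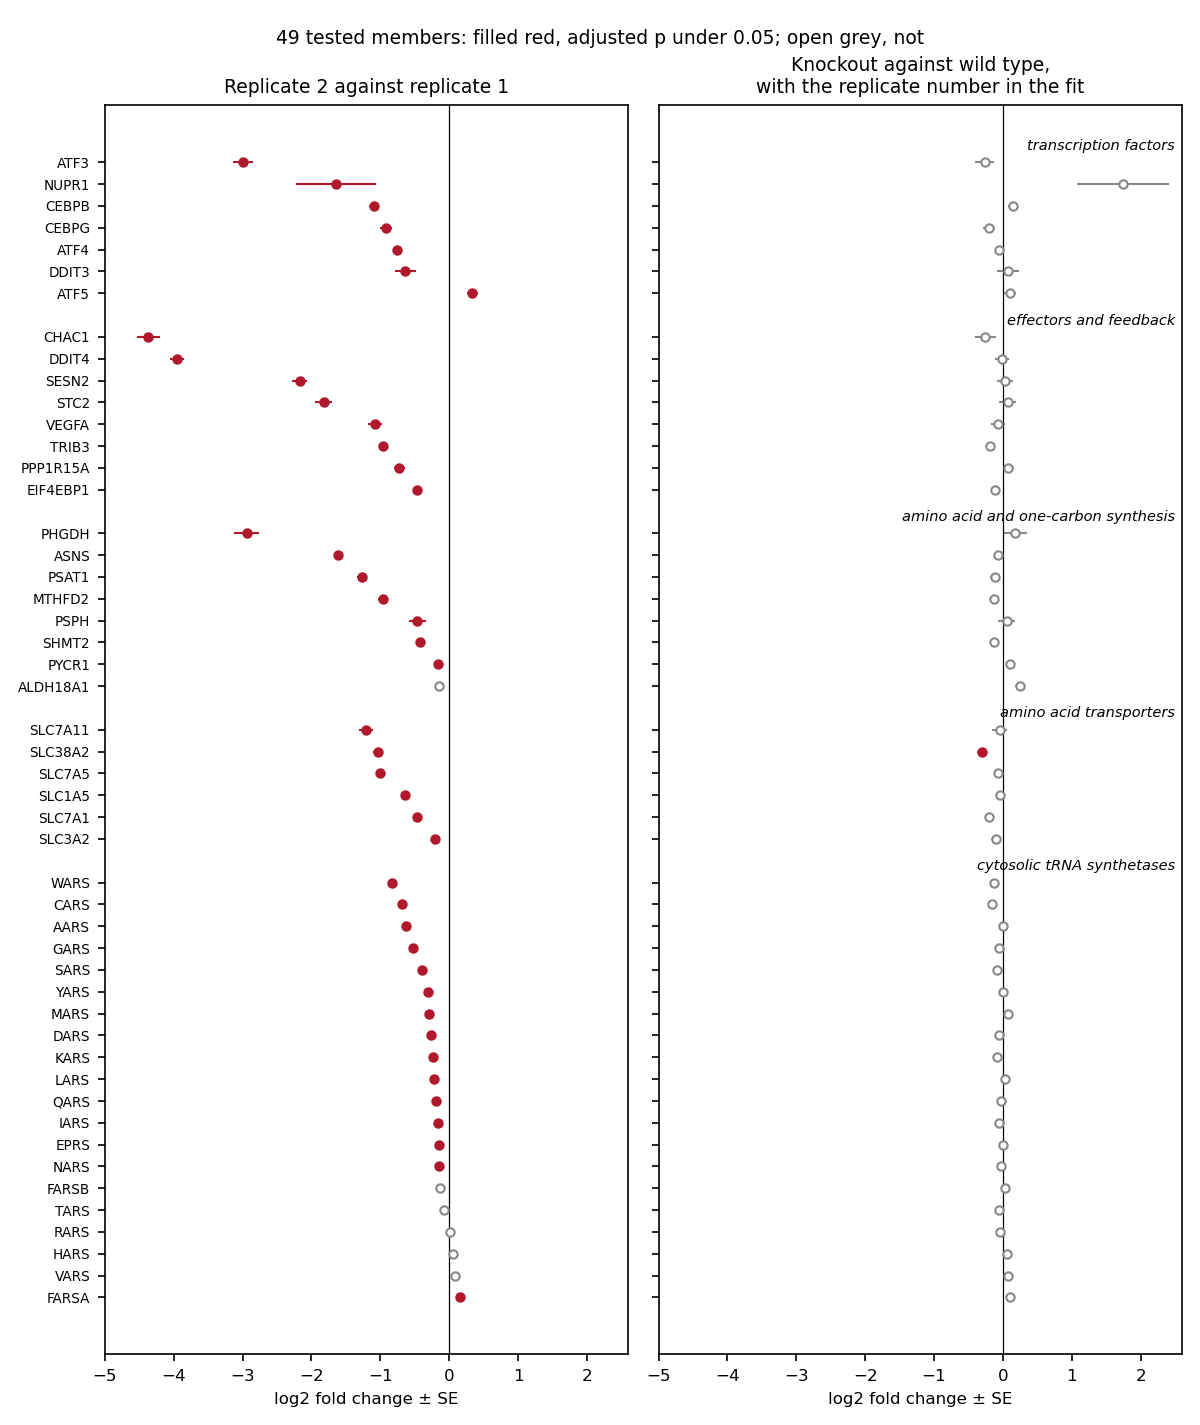
Log2 fold change with its standard error (horizontal axis) for the 49 tested members, ordered by role: left, replicate 2 against replicate 1; right, ZNF410 knockout against wild type with the replicate number in the fit. Filled red points have an edgeR adjusted p under 0.05, CARS and VARS are from estimated counts, and the left panel holds 43 filled points while the right one holds SLC38A2 alone.

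Among the transcription factors, 6 of 7 fell in replicate 2 and 1 rose. ATF4, the central factor, had 486 CPM (reads scaled to library size) in the replicate 1 library of the control, 434 with sgRNA1 and 442 with sgRNA2. In replicate 2 it had 263, 279 and 262.5 CPM. The replicate 1 libraries all lay above the replicate 2 libraries, by 1.56-fold to 1.85-fold within a group, and the log2 fold change was -0.76 (SE 0.054, adjusted p 9.23e-08). ATF4 was the most abundant of all 50 members per length, with a median of 331 FPKM over the 6 libraries.

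ATF3, a stress-induced partner of the same family, changed more. It had 46.6, 33.5 and 35.4 CPM in the control, sgRNA1 and sgRNA2 libraries of replicate 1, and 4.33, 5.14 and 4.89 CPM in those of replicate 2. Its log2 fold change was -2.99 (SE 0.148, adjusted p 2.94e-09), with no overlap between the numbers. DDIT3, which encodes the pro-apoptotic factor CHOP, went from 38.6, 33.4 and 28.7 CPM to 16.4, 26.1 and 22.5 CPM in the same order. The fall of DDIT3 was -0.64 on the log2 scale (SE 0.148, adjusted p 0.00289), and it was 2.36-fold in the control and 1.28-fold and 1.27-fold with the guides. Without control replicate 1 or control replicate 2 it was at -0.35 in each case, still called (adjusted p 0.0181 and 0.0146).

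CEBPB and CEBPG, C/EBP proteins that dimerise with ATF4, fell by 1.09 and 0.92 on the log2 scale. NUPR1, a small stress-induced chromatin protein, fell by 1.64 with a wide standard error of 0.579, and no library had more than 1.95 CPM of it. ATF5, a relative of ATF4, was the exception among the factors. It had 56.5, 72.5 and 63.9 CPM in replicate 1 and 82.7, 84.9 and 75.8 CPM in replicate 2. All replicate 2 libraries were above all replicate 1 libraries, and the rise was 0.34 on the log2 scale (SE 0.0741, adjusted p 0.00196).

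All 8 tested effector and feedback genes fell, with a median of -1.45, and in each of them the 2 numbers did not overlap. CHAC1, an enzyme that degrades glutathione, showed the largest difference of all members. In replicate 1 it had 74.3, 55.4 and 58.3 CPM in the control, sgRNA1 and sgRNA2 libraries, and 2.32, 4.19 and 2.5 CPM in replicate 2. This was a 32.0-fold, 13.2-fold and 23.3-fold difference within the groups and -4.37 on the log2 scale (SE 0.171, adjusted p 2.89e-10). DDIT4, which restrains the growth kinase mTORC1, ranked next. It fell from 908, 788 and 773 CPM to 43.9, 52.5 and 62.8 CPM (log2 -3.96, SE 0.0993, adjusted p 2.54e-12). Its deposited FPKM had a median of 508 in replicate 1 and 36.2 in replicate 2, so that it was above ATF4 (412 FPKM) in the first number and far below it (254 FPKM) in the second.

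SESN2, a leucine sensor that also restrains mTORC1, went from 108, 103 and 87.2 CPM to 17.6, 25.4 and 23.2 CPM (log2 -2.17, SE 0.107, adjusted p 2.94e-09). TRIB3, a pseudokinase that feeds back on ATF4, went from 212, 182 and 175 CPM to 103, 95.6 and 92.7 CPM (log2 -0.96, SE 0.056, adjusted p 1.28e-08). TRIB3 thus changed by 1.89-fold to 2.05-fold within groups, close to ATF4 itself and much less than CHAC1 or DDIT4. The remaining effectors were STC2, a secreted glycoprotein, at -1.82, the growth factor VEGFA at -1.08, PPP1R15A, the phosphatase subunit that reverses eIF2 phosphorylation, at -0.72, and the translation repressor EIF4EBP1 at -0.47.

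**Figure D2:**
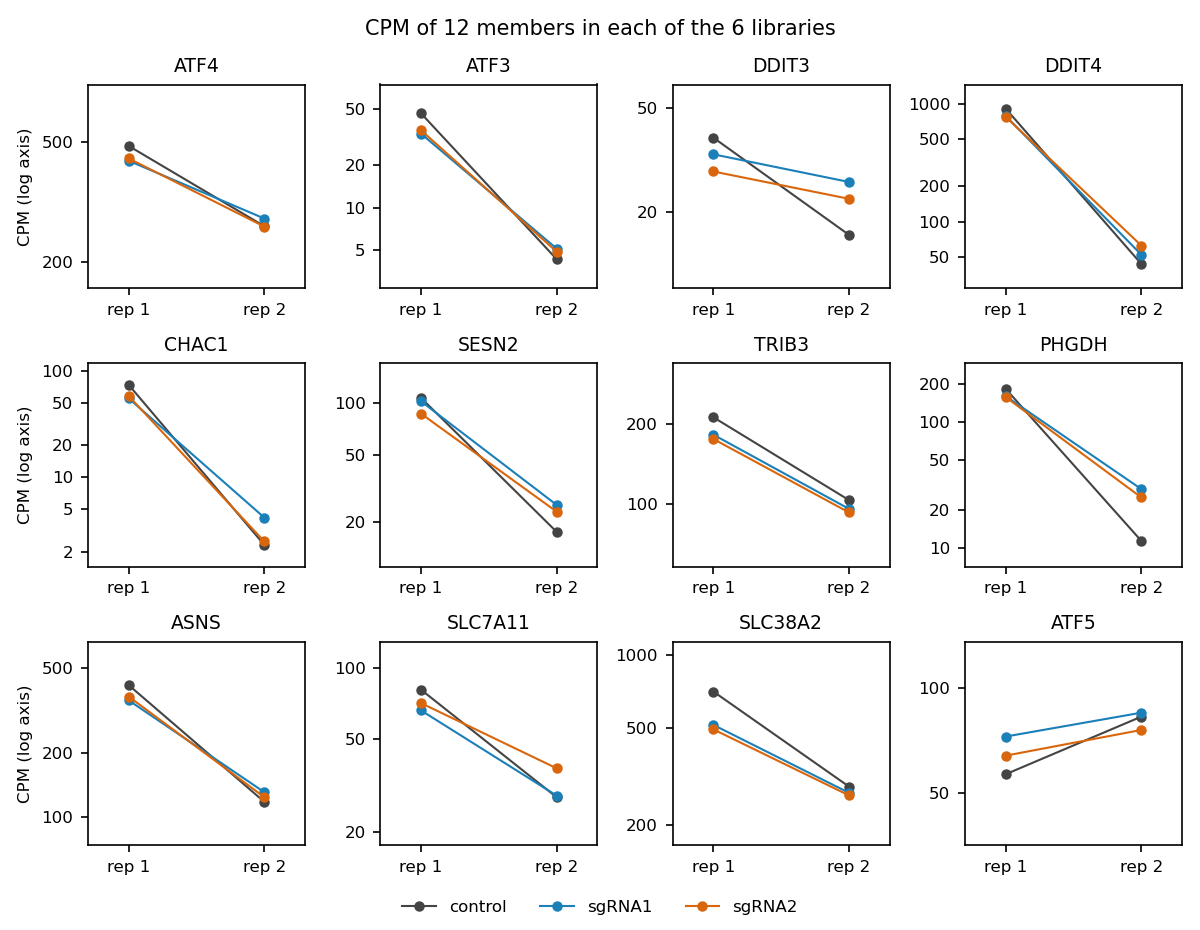
CPM on a log axis (vertical) of 12 members in the replicate 1 and replicate 2 libraries (horizontal), with lines joining the libraries of the control guide (grey), sgRNA1 (blue) and sgRNA2 (orange). The first 11 genes slope down in all 3 groups and ATF5 slopes up, and for PHGDH the control line falls below the guide lines, from 183 to 11.4 CPM.

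Amino acid synthesis enzymes fell in 7 of 8 cases, with a median of -0.71. PHGDH, the first enzyme of serine synthesis, had 183, 160 and 158 CPM in replicate 1 and 11.4, 29.4 and 25.2 CPM in replicate 2 (log2 -2.94, SE 0.178, adjusted p 1.84e-08). PSAT1, the next enzyme of that route, went from 319, 265 and 265 CPM to 113, 124.5 and 113 CPM (log2 -1.27, SE 0.0679, adjusted p 6.13e-09). PSPH, the last enzyme, changed least of the serine pathway, by -0.46. The steps of serine synthesis therefore differed in size, from 16.1-fold for PHGDH to 1.6-fold for PSPH in the control libraries. ASNS, asparagine synthetase, went from 418, 354 and 369 CPM to 118, 131 and 124 CPM (log2 -1.61, SE 0.0665, adjusted p 4.59e-10).

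The mitochondrial folate enzymes MTHFD2 and SHMT2 fell by 0.96 and 0.42 on the log2 scale. Of the proline synthesis enzymes, PYCR1 fell by 0.17, and ALDH18A1 was at -0.15 and did not pass the test (adjusted p 0.0527). All 6 amino acid transporters fell, with a median of -0.82. SLC7A11, the cystine/glutamate exchanger, went from 80.7, 65.9 and 70.8 CPM to 28.2, 28.6 and 37.4 CPM (log2 -1.21, SE 0.0982, adjusted p 3.25e-07). SLC7A5, the large neutral amino acid carrier, went from 777, 722 and 709 CPM to 367, 376 and 354 CPM (log2 -1.01, SE 0.0474, adjusted p 1.68e-09). SLC38A2, a glutamine and alanine transporter, went from 707, 516 and 495 CPM to 289, 272 and 266 CPM (log2 -1.04, SE 0.0669, adjusted p 3.7e-08).

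The other transporters were SLC1A5 (-0.64), SLC7A1 (-0.47) and SLC3A2 (-0.20), the last being the shared heavy chain of SLC7A11 and SLC7A5. SLC3A2 was the only transporter whose numbers overlapped, with 383 to 480 CPM in replicate 1 and 354 to 398 CPM in replicate 2. Its light chains SLC7A5 and SLC7A11 differed at least 1.89-fold in each group, while SLC3A2 differed by 1.07-fold to 1.32-fold.

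The cytosolic synthetases, which load amino acids onto their tRNAs, changed least of the 5 roles, with a median of -0.23. Of the 20, 14 fell, 1 rose and 5 did not pass the test. WARS, the tryptophan enzyme, fell most: it had 660, 555 and 537 CPM in replicate 1 and 324, 335 and 326 CPM in replicate 2 (log2 -0.82, SE 0.0591, adjusted p 9.78e-08). AARS, the alanine enzyme, went from 589, 557 and 565 CPM to 357, 378 and 373 CPM (log2 -0.63, SE 0.0489, adjusted p 2.18e-07). In estimated counts CARS, the cysteine enzyme, fell by 0.69 (SE 0.062, adjusted p 2e-06), and its whole-number counts, which were few beside its estimated ones, gave -1.66.

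Behind these came GARS (-0.53), SARS (-0.40), YARS (-0.30), MARS (-0.29), DARS (-0.27), KARS (-0.23), LARS (-0.22), QARS (-0.20), IARS (-0.16), EPRS (-0.15) and NARS (-0.14), all called lower. The enzymes for threonine (TARS, -0.07), arginine (RARS, 0.01), histidine (HARS, 0.05) and the beta subunit for phenylalanine (FARSB, -0.13) did not pass the test. FARSA, the alpha subunit for phenylalanine, had 294, 342 and 328 CPM in replicate 1 and 356, 365 and 355 CPM in replicate 2, a rise of 0.16 on the log2 scale (SE 0.0513, adjusted p 0.02). That call rested on the control libraries, since the value was 0.11 with an adjusted p of 0.0886 without control replicate 1, and 0.11 with 0.105 without control replicate 2.

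VARS, the valine enzyme, needed its estimated counts. Its whole-number counts were 237 and 131 in the control, 88 and 92 with sgRNA1 and 89 and 78 with sgRNA2, whereas its estimated counts were 9892 and 12355, 11605 and 12563, and 12050 and 11415. The ratio of the 2 sums was 0.0102, against a median of 0.553 over genes. By estimated counts VARS was at 0.08 in replicate 2 against replicate 1 (SE 0.0473, adjusted p 0.152), and by whole-number counts it was at -0.45 (SE 0.181, adjusted p 0.0587). Neither passed the test, and the signs differ.

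Levels between synthetases can be compared on the deposited FPKM, which are divided by length. KARS was highest, with a median of 278 FPKM and a range of 245 to 306 over the 6 libraries, above every library of FARSA. FARSA (226) and TARS (223) came next, with ranges of 185 to 244 and 222 to 246 that overlap each other. WARS (180), VARS (170) and EPRS (168) followed, WARS with the widest range, 131 to 260 FPKM. SARS (167), AARS (145), GARS (134), YARS (133), MARS (130), NARS (122), RARS (106) and IARS (103) formed the middle, where the ranges of neighbours overlapped except between NARS (at least 116) and RARS (at most 111). QARS (92.8), LARS (92.1), FARSB (77.6), HARS (70.4) and DARS (64.8) were lower. CARS was lowest at 40.5 FPKM, and its highest library (58.8) lay just above the lowest of DARS (58.5).

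**Figure D3:**
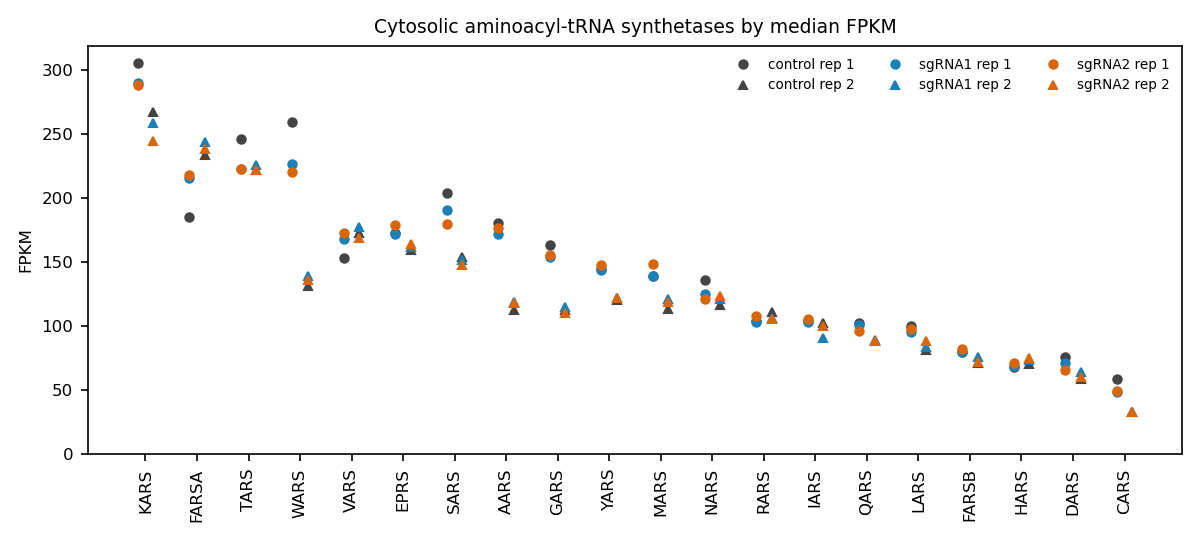
Deposited FPKM (vertical axis, linear) of the 20 cytosolic synthetases in each library, ordered by median; circles are replicate 1, triangles replicate 2, and colours mark the control guide (grey), sgRNA1 (blue) and sgRNA2 (orange). WARS shows the widest gap between the numbers, with medians of 227 and 136 FPKM, while TARS, RARS and HARS overlap.

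The replicate comparison can be set beside the response element matches as counts, with no test of the difference. Of the 14 members with a match, 13 fell and TARS did not pass the test, with a median of -0.58. Of the 24 tested members with a window and no match, 18 fell and 2 rose, with a median of -0.74. Members without a match included DDIT4 and PHGDH, which fell 15.5-fold and 7.68-fold. The 8 genes whose stretches are printed above ranged from -4.37 (CHAC1) to -0.07 (TARS).

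Other genes around the pathway were counted from lists, beside the shares of 21.6% higher and 23.5% lower over all genes. Of the eIF2 kinases, eIF2, eIF2B and their sensors, 8 of 16 were higher, 3 were lower and 5 did not pass the test, with a median of 0.10. PKR (EIF2AK2) rose by 0.63 and PERK (EIF2AK3) by 0.49 on the log2 scale, whereas GCN2 (EIF2AK4), the kinase that senses uncharged tRNA, fell by 0.35. OMA1, the mitochondrial protease of the stress relay, rose by 0.55. HRI (EIF2AK1) was at -0.04, with 230 to 245 CPM in all libraries, and did not pass the test.

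Of 17 mitochondrial synthetases 1 rose and 4 fell by whole-number counts, with a median of -0.03, and 4 rose and 3 fell by estimated counts, with a median of 0.02. TARS2, the threonine enzyme, was at -0.70, NARS2 at -0.20 and LARS2 at 0.28, and their estimated counts gave -0.70, -0.26 and 0.29, all of them called. VARS2 turned between the tables, from -1.35 in whole-number counts, where it had no more than 7.79 CPM, to 0.59 in estimated counts (SE 0.0748, adjusted p 2.99e-05). PARS2, at -0.31 in whole-number counts, was at -0.20 in estimated counts and not called there (adjusted p 0.0689). The ATF6 and XBP1 arms of the unfolded protein response gave 3 higher and 6 lower of 17 by whole-number counts (median -0.001), and 6 higher and 5 lower by estimated counts (median 0.03). HERPUD1, a factor of protein disposal from the endoplasmic reticulum, fell by 0.90 and the sensor kinase ERN1 by 0.75, while the chaperones HSPA5 and CALR rose by 0.23 and 0.27.

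Of the other amino acid genes and synthetase scaffolds, 12 of 17 were lower and 2 higher, with a median of -0.32, and 5 were lower by at least 2-fold. ASS1, argininosuccinate synthetase, had 32.4, 31.3 and 21.2 CPM in replicate 1 and 1.79, 1.99 and 1.52 CPM in replicate 2 (log2 -3.98, SE 0.168, adjusted p 5.74e-10). CTH, which makes cysteine, fell by 1.85, GPT2, a mitochondrial alanine aminotransferase, by 1.5, the folate enzyme ALDH1L2 by 1.5 and the neutral amino acid transporter SLC1A4 by 1.47. CBS, upstream of CTH in the same route, rose by 0.40. The lists were described by counts and medians alone, and no list was tested as a set.

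**Figure D4:**
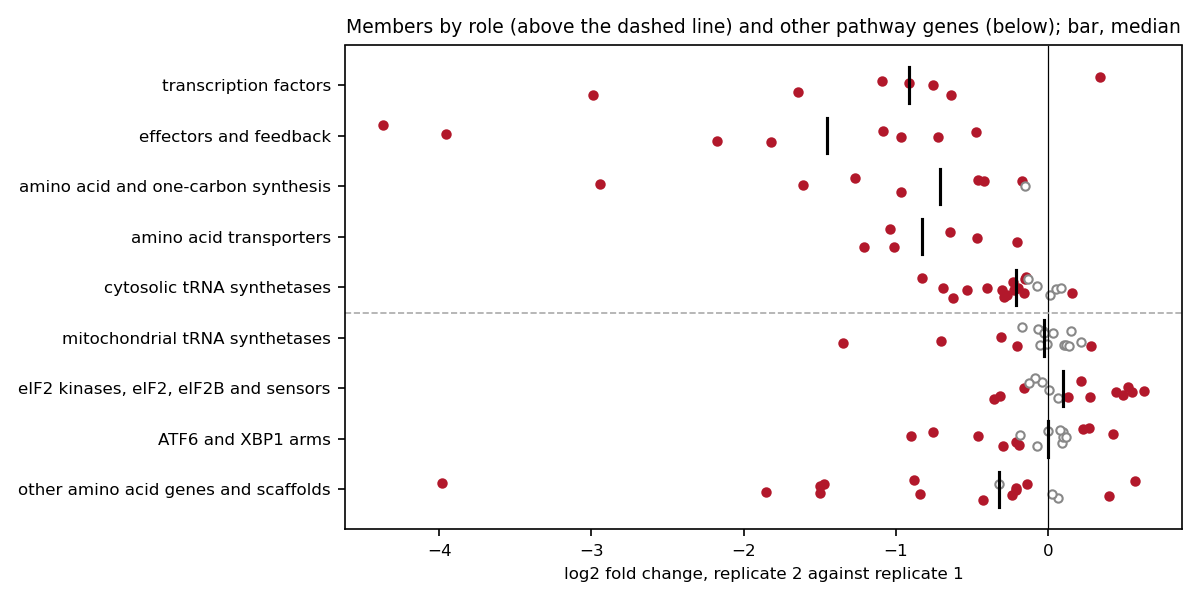
Log2 fold change of replicate 2 against replicate 1 (horizontal axis) for each tested gene of the 5 member roles and of the 4 lists of other pathway genes; filled red points have an edgeR adjusted p under 0.05 and black bars are medians (CARS and VARS from estimated counts). The effectors lie farthest to the left, from -4.37 to -0.47, the eIF2 list reaches 0.63 on the right, and the leftmost mitochondrial synthetase, VARS2 at -1.35, is at 0.59 in estimated counts.

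Other features of the libraries moved with the replicate number. The 10 markers of the K562 line summed to 3550 to 4012 CPM in replicate 1 and 6199 to 7460 CPM in replicate 2. TFRC, at 1625 to 1666 and 2688 to 2799 CPM, and the globin HBG2, at 1011 to 1302 and 2117 to 2724 CPM, made up most of these sums. Of the 10 markers 8 rose, while GATA1 fell by 0.15 on the log2 scale and LMO2, at -0.14, did not pass the test. HBE1, embryonic globin, rose by 2.47 on the log2 scale. Of the 17 markers of other cell types, 6 to 8 were at 0 in each library, and their sum was 129 to 153 CPM in replicate 1 and 105 to 114 CPM in replicate 2. EPCAM alone made up 93.8 to 112 CPM of these sums, and CD3D and LYZ, at no more than 17.8 CPM, were lower in replicate 2. The part of these differences in the stress gene result was not tested. Total gene counts of 8788816 to 9537470 per library did not separate the numbers.

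The comparison the study was built for, knockout against control guide, was examined after the target itself. ZNF410, a zinc-finger transcription factor, had 38.2 and 34.0 CPM in the control libraries and 17.0 to 24.5 CPM in the 4 knockout libraries. CHD4, its known target gene, had 590 and 666 CPM in the control and 284 to 326 CPM in the knockouts. Both lay below the controls in every knockout library.

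Among the 49 tested members none was called for knockout against wild type, for sgRNA1 or sgRNA2 against control, or for sgRNA2 against sgRNA1, when the replicate number was left out of the edgeR fit (0.0% of all genes in the first of these). At an unadjusted p under 0.05 there were 2, 1, 1 and 0 members, and the DESeq2 Wald test called 0 in each. With the replicate number as a block, which removes the difference described above, 2 members were called for knockout against wild type, both lower, against 1.84% of all genes. There was 1 for sgRNA1 (0.887% of all genes), 1 for sgRNA2 (1.38%) and 0 for sgRNA2 against sgRNA1 (0.0896%), where 1 member had an unadjusted p under 0.05. These calls were VARS in all 3 knockout contrasts and SLC38A2 in the first alone. They moved with the control libraries: without control replicate 2 there were 7, 11 and 11 members for knockout, sgRNA1 and sgRNA2, of which 6, 9 and 10 were lower, and without control replicate 1 there were 1, 5 and 2, all higher. Over all genes the same fits called 1.87%, 3.63% and 5.02% without control replicate 2, of which 92 of 236, 187 of 459 and 291 of 634 were lower. Without control replicate 1 they called 1.16%, 2.45% and 3.05%, with 102 of 146, 212 of 310 and 239 of 386 higher. The members' median in the blocked genotype contrast was -0.05, with 31 values below 0 and 18 above, against 5950 and 6332 of all 12282 genes.

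SLC38A2 lay below the control of its own number in all 4 knockout libraries. The log2 difference was -0.45 with sgRNA1 and -0.51 with sgRNA2 in replicate 1, and -0.09 and -0.12 in replicate 2. With the block the fit gave -0.30 (SE 0.0688, adjusted p 0.0338), or -0.30 in the estimated counts (adjusted p 0.0353). Per guide it was -0.28 (adjusted p 0.17) for sgRNA1 and -0.33 (adjusted p 0.0664) for sgRNA2, neither of which passed the test. The call was lost without control replicate 1, where the value was -0.11 (adjusted p 0.663), without sgRNA1 replicate 1 (-0.29, adjusted p 0.129) and without sgRNA2 replicate 1 (-0.27, adjusted p 0.113). It was also absent with limma on the deposited FPKM (-0.28, adjusted p 0.15), and over all blocked settings its adjusted p lay between 0.000218 and 0.663.

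VARS was at -1.09 in the blocked whole-number counts (SE 0.178, adjusted p 0.00429) and at 0.07 in the blocked estimated counts (SE 0.0505, adjusted p 0.546). By FPKM it had 153 and 173 in the control, 168 and 178 with sgRNA1 and 172 and 169 with sgRNA2, where the groups overlap. The call was thus made in the whole-number table alone. Without control replicate 1, which held 237 of the whole-number counts, the blocked value was -0.62 (adjusted p 0.273).

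In the blocked estimated counts 3.03% of all genes and again 2 members were called, SLC38A2 and, as a rise, ALDH18A1, which makes the precursor of proline and ornithine. ALDH18A1 had 157 and 158 CPM in the control, 206 and 179 with sgRNA1 and 198 and 168 with sgRNA2. All 4 knockout libraries were above both controls. With the block the fit gave 0.27 (SE 0.0622, adjusted p 0.0382) in the estimated counts and 0.25 (SE 0.0647, adjusted p 0.0758) in the whole-number counts. Without control replicate 1 the blocked whole-number value was 0.12 (adjusted p 0.674), and without control replicate 2 it was 0.36 (adjusted p 0.0231). In the estimated counts it was 0.29 (adjusted p 0.0849) for sgRNA1 and 0.25 (adjusted p 0.109) for sgRNA2.

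ATF4 itself was at -0.06 for knockout against wild type with the block (SE 0.0559, adjusted p 0.725). It lay below its control in 3 of 4 knockout libraries, at -0.16 and -0.14 in replicate 1 and 0.09 and -0.004 in replicate 2. DDIT3 (0.07, SE 0.159), ATF3 (-0.27, SE 0.141), CHAC1 (-0.25, SE 0.15), TRIB3 (-0.19, SE 0.0587) and ASNS (-0.07, SE 0.0679) did not pass the test either. All 4 knockout libraries were below the control of their number for 9 of 49 members (18.4%), against 14.9% of all genes, and above it for 6 (12.2%), against 16.2%. NUPR1 had the largest value, 1.75, with an SE of 0.671 and at most 1.95 CPM. Values that miss the threshold do not show that knockout left these genes alone.

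The knockout libraries can also be set beside the control library of their own number, which is 1 library each, so the values below describe these libraries. For DDIT3 the log2 difference from the control was -0.21 and -0.43 in replicate 1 and 0.68 and 0.46 in replicate 2, for sgRNA1 and sgRNA2. For SESN2 it was -0.07 and -0.31 against 0.53 and 0.39, and for DDIT4 it was -0.21 and -0.23 against 0.26 and 0.52. The interaction of genotype with replicate number, fitted after the data were seen, takes its spread from the 2 guides and assumes that the lone control libraries vary alike. It therefore gives no evidence of a difference that is separate from these 2 control libraries, which all members share. Its values were above 0 for 40 of 49 members with a median of 0.14, against 6379 of 12282 and a median of 0.01 over all genes. PHGDH and VEGFA were past the threshold in that fit, as were 0.244% of all genes.

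PHGDH differed from the control by -0.19 and -0.22 in replicate 1 and by 1.37 and 1.15 in replicate 2 on the log2 scale. The interaction value was 1.47. VEGFA, named after its values were seen, had 227, 179 and 172 CPM in replicate 1 and 78.0, 95.5 and 97.9 CPM in replicate 2 for the control, sgRNA1 and sgRNA2. Its interaction value was 0.68. Seen by group, the fall of PHGDH from replicate 1 to replicate 2 was 16.1-fold in the control and 5.46-fold and 6.25-fold with the guides. Among the other amino acid genes ALDH1L2 had 1.37 CPM in the control library of replicate 2, against 5.77 and 6.52 with the guides, and SLC1A4 had 12.4, 22.8 and 27.3 CPM.

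**Figure D5:**
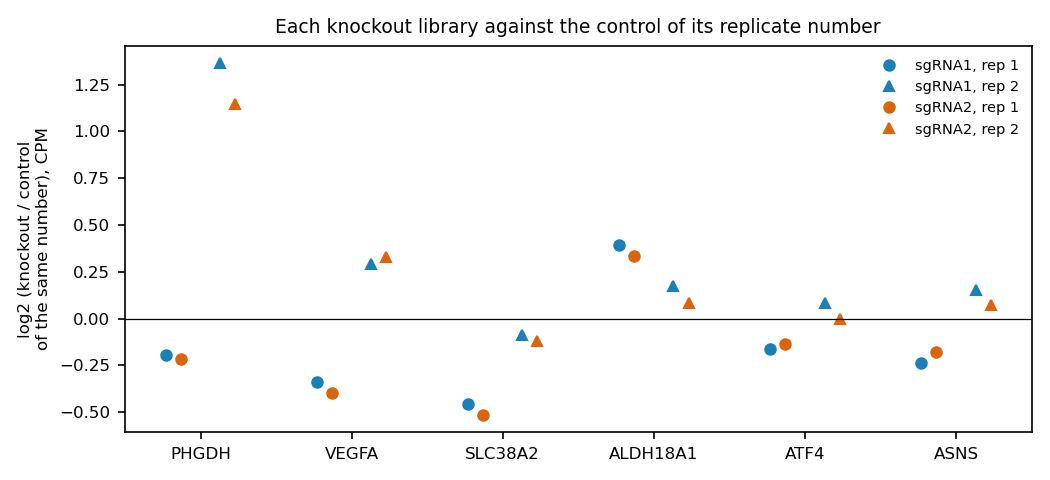
Log2 ratio of CPM of each knockout library to the control library of its replicate number (vertical axis) for 6 members; circles are replicate 1, triangles replicate 2, blue sgRNA1 and orange sgRNA2. PHGDH and VEGFA lie below 0 in replicate 1 and above 0 in replicate 2, SLC38A2 lies below 0 and ALDH18A1 above 0 in all 4 pairs.

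With the replicate block, in the mitochondrial synthetases, the eIF2 list, the ATF6 and XBP1 arms and the other amino acid genes no gene was called for knockout against wild type or for either guide. The K562 markers HBE1 (0.92) and HBG2 (0.32) were called higher in the knockouts, and the part of that difference in the members' values was not tested.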

How the data were processed

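RNA-seq data of 6 K562 libraries, 3 groups of 2, were used. Per the submitters' processing notes, Trim Galore, HISAT2 2.2.1, SAMtools 1.9, HTSeq 0.6.1, RSEM 1.3.2 and DESeq2 1.36.0 were used with hg38, with no role or order given. The authors deposited whole-number counts per gene symbol, not normalized. Estimated counts (expected count, per the file headers) are the authors' estimates of reads per gene, as deposited. FPKM values, per the file headers, are scaled by the authors to gene length and depth. The strand setting of the counting is not given in the sources used here, so overlapping and antisense genes are uncertain. Reads given to no gene (61.6% to 62.6% of a table's total) stayed out of library sizes. Gene counts summed to 8788816 to 9537470 and estimated counts to 17228254 to 18689560 per library.

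The test across genes was edgeR's (4.0.16, R 4.3.3; quasi-likelihood F-test, TMM, filterByExpr by group, 12282 genes), with Benjamini-Hochberg adjustment over all genes and a threshold of 0.05. Knockout and guide contrasts had no replicate block in the main design, and the replicate contrast had guide and number as terms. CPM values were computed from the counts on TMM-scaled library sizes, from estimated counts for CARS and VARS. The ratio of whole-number to estimated counts lay beyond a factor of 2 of its median of 0.553 for CARS, VARS and VLDLR. Estimated counts, rounded (12764 genes tested), are used for the levels and figure values of CARS and VARS, and VLDLR was too low to test. Counts of members called, and values of genes on the other lists, are from whole-number counts unless stated, also where the tables disagree. The groups share replicate numbers, and same-numbered libraries deviated together (r = 0.813, 0.758 and 0.826 over 9966 genes averaging 50 counts or more). The numbers were therefore treated as pairs, on the data alone, and blocked values are printed. Replicates of a group differed far beyond counting noise (chi-square per degree of freedom 22.3 to 26.8), so each was counted as its own sample. The procedure was also run on simulated counts, drawn with the spread of the blocked fit. Far fewer genes were changed there than the replicate comparison called, and its outcome is not used here.

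Other settings were DESeq2 1.42.0 size factors and its Wald test, estimated counts, a filter of 1 count or of a mean of 50 counts, upper-quartile scaling, limma 3.58.1 on log2(FPKM + 1) and log2(FPKM + 0.1) with and without a mean FPKM minimum of 0.5, and each library left out. The members, lists, contrasts and named genes were chosen with earlier results of these data known. Named with the value in every library were 14 fixed members, every member called by genotype or guide with the block, and the 5 largest falls and rises of the replicate contrast among those called, of which the rises numbered 2. DELE1 was matched as KIAA0141 in the whole-number table.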

Additional observations from a re-analysis of the deposited data

Results flagged for a closer look

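PHGDH and VEGFA stood out because their knockout libraries lay below the control library in replicate 1 and above it in replicate 2. The interaction of genotype with replicate number was 1.465 on the log2 scale for PHGDH and 0.68 for VEGFA in whole-number counts, and 1.31 and 0.76 in estimated counts. With each knockout library left out in turn, the values were 1.35 to 1.57 for PHGDH and 0.65 to 0.71 for VEGFA. Each number has 1 control library and the fit takes its spread from the 2 guides, so a deviation of a control library and a difference in the effect of genotype cannot be told apart.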

How the results depend on the processing

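Between the replicate numbers 43 members were called in the main design, 39 to 41 with 1 library left out and 40 to 46 under the other scalings, filters, count tables and tests. DDIT3 moved between -0.789 and -0.347 with 1 library left out, still called, and FARSA lost its call at 0.108 and 0.106 without control replicates 1 and 2. The sign of VARS turned to 0.084 in estimated counts.

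With the replicate block, members called for knockout against wild type went from 0 to 2, and there were also 2 with the block and estimated counts, DESeq2's Wald test, DESeq2 size factors or no filter, and 0 with limma on FPKM. For sgRNA1 the block gave 1, with DESeq2 size factors 1 and with no filter 3, and for sgRNA2 it gave 1, 1 and 2. In estimated counts and with DESeq2's Wald test the blocked guides gave 0. With 1 library left out of the blocked fits, the counts ranged from 1 to 7 for knockout, 0 to 11 for sgRNA1 and 1 to 11 for sgRNA2, and stayed at 0 for sgRNA2 against sgRNA1. The highest counts came without control replicate 2 (7, 11 and 11, where 1.87%, 3.63% and 5.02% of all genes were called). A left-out control leaves 1 control library, whose spread is assumed to be that of the other groups, and the cause was not tested.

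The unblocked knockout value of ATF4 ranged from -0.457 to 0.42 with 1 library left out (0.42 without control replicate 1, 0.017 without sgRNA1 replicate 2 and 0.039 without sgRNA2 replicate 2), and the blocked one from -0.152 to 0.035. SLC38A2 ranged from -0.869 to 0.415 unblocked and from -0.485 to -0.109 blocked. VARS, at -1.134 in whole-number counts, was at 0.07 in estimated counts, 0.073 with the block added, and 0.078, 0.079 and 0.078 with the block and limma on log2(FPKM + 1), log2(FPKM + 0.1) and log2(FPKM + 1) without a filter. The interaction fit put 2 members past its threshold, 3 in estimated counts and 2 to 5 with 1 knockout library left out (5 without sgRNA2 replicate 2). The response element's exact form gave 9 of 39 members in place of 14.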
